A study of Mus musculus with 6 samples.

Results

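The genes described here are 10 members of the interleukin-6 (IL-6) family pathway, taken by gene symbol out of 56884 genes listed in each library. They are the cytokines Il6, Lif, Osm and Cntf, the receptors Il6ra, Il6st, Lifr and Osmr, the transcription factor Stat3 and its feedback inhibitor Socs3. Their transcripts were followed by cell type in 6 single-cell libraries made with the BD Rhapsody system, in a study of the signals that pericytes, the mural cells of capillaries, give to the postnatal lung and brain. At postnatal day 21, lungs were taken from 2 kinds of control, Bdnf lox/lox and Hgf lox/lox, and from the matching mutants, named Bdnf iPCKO and Hgf iPCKO. At postnatal day 12, cortex was taken from Nodal lox/lox controls and from mutants named Nodal iPCKO. The iPCKO mutants carry the floxed gene with Pdgfrb(BAC)-CreERT2, a tamoxifen-inducible Cre driven by the promoter of a mural cell receptor, and the controls lack Cre. All mice, controls included, received 50 µg of tamoxifen on days 1 to 3 after birth. Each library pools 2 mice, and 40000 cells were prepared for it. Lung suspensions had been depleted of CD45+ and Ter119+ cells, and cortex suspensions had been freed of meninges and myelin debris. With 1 library per group no comparison has a replicate, and no test between groups was possible.

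Cytokines of the IL-6 family share the signalling receptor gp130, encoded by Il6st. IL-6 binds its own receptor IL-6RA first, leukaemia inhibitory factor (LIF) pairs LIFR with gp130, and oncostatin M (OSM) pairs OSMR or LIFR with gp130. The complexes activate Janus kinases, which phosphorylate STAT3, and STAT3 induces Socs3, whose product shuts gp130 signalling down again. The pathway is known in the brain for reactive astrocytes and in the lung for inflammation and repair.

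Libraries held 33889545 to 186701379 unique molecular identifiers (UMIs, 1 per captured transcript), and 3237 to 24311 barcodes reached the minimum of 1500 UMIs (700 in the shallower Hgf libraries). Marker genes assigned 78.3 to 92.5% of these barcodes to a cell type, so the names below end in "-like". Pairs of libraries shared 21 to 457 barcodes, against 17.8 to 457 for independent draws, and the largest excess in ratio was 108 against 80.3. Levels are CPM, the UMIs of a gene scaled to a common total of UMIs of the same cells (counts per 1e6). Ratios are log2 of the second library over the first, and ranges after a level or ratio are exact 95% intervals that cover counting error only. Of the targeted genes, Nodal had 188 UMIs in control and 0 in mutant pericyte-like cells of the cortex. Hgf was 156 (99.1 to 235) CPM in control and 28.5 (13.7 to 52.3) CPM in mutant lung pericyte-like cells. Bdnf had 5 and 2 UMIs in lung pericyte-like cells, too few to check the labels there. Smooth muscle-like cells had 66 (46.5 to 91) and 32.7 (23.5 to 44.4) CPM of Bdnf, control first. Airway and vascular smooth muscle were not separated in this type. The paper reports no labelling of bronchial smooth muscle by this Cre line, but names its activity in vascular smooth muscle as a limitation. This difference therefore does not check the labels either. Over all cells with an assigned type Bdnf was 27.2 (26.2 to 28.2) and 26.8 (25.8 to 27.8) CPM.

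On GRCm39, Il6 lies on chromosome 5 (30218112 to 30224979, plus strand). Osm (4186420 to 4191026, plus strand) and Lif (4207557 to 4222514, plus strand) are neighbours on chromosome 11, which also carries Stat3 (100775924 to 100830450, minus strand) and Socs3 (117856905 to 117860898, minus strand). Lifr (7120095 to 7226970, plus strand) and Osmr (6843053 to 6904450, minus strand) are both on chromosome 15. Il6ra is on chromosome 3 (89771366 to 89820719, minus strand) and Il6st on chromosome 13 (112600604 to 112646620, plus strand). Cntf is on chromosome 19 (12737353 to 12742996, minus strand) and lies 377 bases from Zfp91, and whether reads of that gene add to its few UMIs was not tested.

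The 250 bases before the start of Il6 and Lif are shown because the same rare lung cells held both transcripts, and a short stretch of Socs3 is shown because it holds a STAT motif. The Socs3 stretch lies inside the gene, in an exon of another annotated Socs3 transcript. They were read from GRCm39 before the start of the canonical GENCODE vM39 transcript, on the strand of the gene. Capitals mark TGANTCA, the motif of AP-1 factors such as FOS and JUN, in Il6 and Lif, and TTCNNNGAA, the motif of STAT factors, in Socs3. Each pattern is its own reverse complement, so both strands were searched at once.
Il6 chr5:30217862-30218111: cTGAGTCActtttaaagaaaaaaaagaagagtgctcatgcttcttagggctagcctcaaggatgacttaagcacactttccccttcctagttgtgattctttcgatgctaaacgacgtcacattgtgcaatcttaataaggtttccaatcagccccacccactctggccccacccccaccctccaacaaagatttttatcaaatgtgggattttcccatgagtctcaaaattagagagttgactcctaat
Lif chr11:4207307-4207556: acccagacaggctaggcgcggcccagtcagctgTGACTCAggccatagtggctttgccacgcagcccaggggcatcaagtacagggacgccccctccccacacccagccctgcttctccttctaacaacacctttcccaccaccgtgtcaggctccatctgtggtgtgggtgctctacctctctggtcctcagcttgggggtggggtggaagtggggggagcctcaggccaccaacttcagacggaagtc
Socs3 chr11:117860330-117860354: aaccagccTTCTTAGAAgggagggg
The match in Socs3 covers bases 223 to 215 before the start of the canonical transcript and is the only TTCNNNGAA in the windows of the 10 genes, while 7.70% of 21757 protein-coding genes hold one. TGANTCA was found in 3 of the 10, in Il6 (bases 249 to 243), Lif (217 to 211) and Cntf (245 to 239), and in 6.18% of all genes. A match describes letters and not a bound site.

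In the lung, a very small population of basophil-or-mast-like cells held a large part of the Il6 and Osm transcripts. It had 33 cells in the Bdnf control, 16 in the Bdnf iPCKO, 39 in the Hgf control and 16 in the Hgf iPCKO library. Both mutants were below the 30 cells otherwise asked for, and the population was singled out after its values were seen. CD45+ cells had been depleted before, so the share of these cells does not give their number in the tissue. Cells can switch on genes during tissue digestion, and 13 such dissociation and immediate-early genes were summed. The sums were 31350 (Bdnf control) and 38320 CPM (Hgf control) in basophil-or-mast-like cells. Myofibroblast-like cells had higher sums in these libraries (53390 and 63050 CPM). The part of this response in the cytokine levels below was not tested.

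Il6, a cytokine of fever and the acute-phase response, had 6499 (6115 to 6901) CPM in basophil-or-mast-like cells of the Bdnf control, 5106 (4583 to 5671) in the Bdnf iPCKO, 6061 (5625 to 6522) in the Hgf control and 4380 (3895 to 4908) in the Hgf iPCKO library. Each mutant was below its control by less than 2-fold. An Il6 UMI was found in 33 of 33, 15 of 16, 38 of 39 and 14 of 16 of these cells. In AT2-like cells, the surfactant-producing epithelium, 1.11% had one in the Bdnf control, with median depths of 8521 UMIs in these and 4225 in basophil-or-mast-like cells. The population held 46.3, 21.9, 61.9 and 69.5% of the Il6 UMIs of the 4 libraries, in the same order. In the Bdnf iPCKO library another 37.4% lay in barcodes without an assigned type.

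Adventitial fibroblast-like cells, the fibroblasts around large vessels and airways, had the next highest level of Il6 outside immune-like cells. They numbered 615, 784, 274 and 114 in the 4 libraries. In the Bdnf iPCKO library they held more Il6 UMIs than basophil-or-mast-like cells did. Their level was 95.2 (88.3 to 102) CPM in the Bdnf control, 62.4 (56.3 to 68.8) in the Bdnf iPCKO, 80.2 (68 to 94) in the Hgf control and 42 (25.3 to 65.6) in the Hgf iPCKO library. This range lay above that of every other stromal, epithelial and endothelial type with 30 cells, of which the highest value was 26 CPM. Barcodes with 5 to 100 UMIs, which hold free RNA and no cell, had 13.1, 14.8, 12.5 and 3.84 CPM of Il6. Pericyte-like cells had 1 Il6 UMI in each Bdnf library and 0 in each Hgf library.

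Osm, a cytokine made mainly by myeloid cells, had 2473 (2238 to 2726) CPM in basophil-or-mast-like cells of the Bdnf control, 2039 (1714 to 2408) in the Bdnf iPCKO, 2501 (2223 to 2803) in the Hgf control and 2293 (1947 to 2684) in the Hgf iPCKO library. These cells held 81.2, 51.1, 68.5 and 65.7% of the Osm UMIs. Outside immune-like cells no lung cell type with 30 cells was above 2.85 CPM, and that value rests on 1 UMI.

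Lif, which acts on stem cells and in injury, was uneven in the same cells. It had 280.2 (205 to 374) CPM in the Bdnf control and 161 (80.6 to 289) in the Bdnf iPCKO, but 33.9 (9.24 to 86.8) in the Hgf control and 429 (287 to 616) in the Hgf iPCKO library. Its UMIs came from 7, 3, 1 and 3 cells, so single cells set these levels. Adventitial fibroblast-like cells had 10, 7.19, 15.8 and 2.21 CPM of Lif, the last from 1 UMI. Cntf, a factor that supports neurons and glia, did not exceed 2.58 CPM in any lung cell type with 30 cells.

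**Figure D1:**
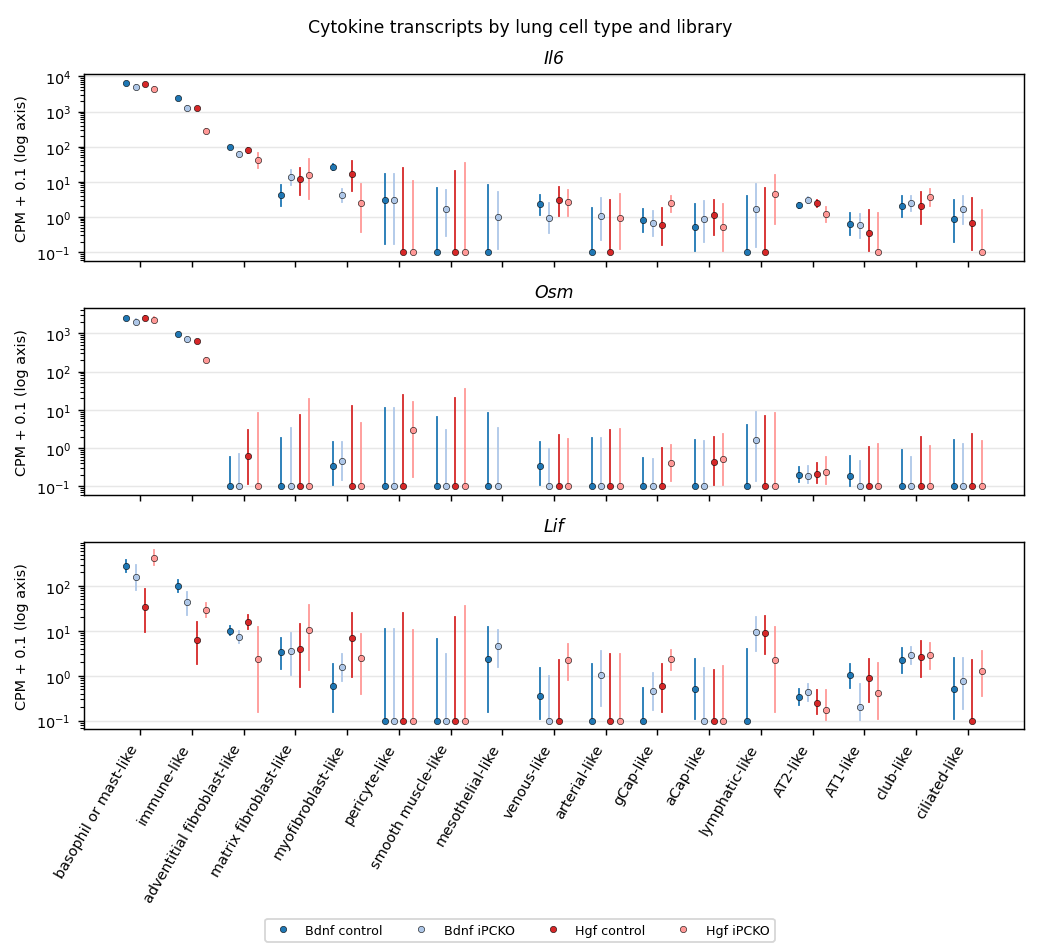
Levels of Il6, Osm and Lif (CPM + 0.1, log axis) by lung cell type, 1 point per library with its exact 95% counting interval as a line. Basophil-or-mast-like cells are highest for Il6 (4380 to 6499 CPM) and Osm (2039 to 2501 CPM), and adventitial fibroblast-like cells are next for Il6 outside immune-like cells (42 to 95.2 CPM).

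Receptor transcripts were each highest in a structural cell type. Il6ra, which binds IL-6, was highest in matrix fibroblast-like cells, the fibroblasts of alveolar walls, with 433 CPM in the Bdnf control, 508 in the Bdnf iPCKO, 281 in the Hgf control and 757 in the Hgf iPCKO library. Series of 4 values below keep this order. Among types with 30 cells, myofibroblast-like cells of the Hgf iPCKO library (414 CPM) were the one value above the lowest of these. Mesothelial-like cells reached the minimum of 30 cells in the Bdnf control (40 cells) and Bdnf iPCKO (136 cells) libraries, where they had 143 and 109.8 CPM. Ciliated-like (111, 132, 112 and 151 CPM), immune-like (112, 96.3, 129.5 and 138 CPM) and club-like cells (117, 114, 79.4 and 121 CPM) followed with overlapping ranges. General capillary (gCap-like) endothelial cells had 3.11, 6.01, 3.58 and 8.71 CPM, below the 50.8, 53.7, 35.2 and 80.4 CPM of barcodes without a cell.

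Il6st, the shared gp130 subunit, was highest in venous-like endothelial cells with 543, 409, 928 and 990.3 CPM. The lowest of these was above every other cell type with 30 cells, and adventitial fibroblast-like cells were next (249.5, 200.1, 353 and 376 CPM). Pericyte-like cells had 266, 177, 306 and 250.5 CPM, a range that overlapped the adventitial one. Immune-like cells were last (26.4, 23.2, 26.2 and 36.1 CPM), and basophil-or-mast-like cells had 2, 1, 3 and 0 Il6st UMIs.

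Lifr, the receptor for LIF, was also highest in venous-like cells (248, 155, 266 and 312 CPM), with a range that overlapped gCap-like cells (147, 123, 212 and 139 CPM). Osmr, which pairs with gp130 to bind OSM, was highest in arterial-like cells (256, 195, 207 and 204 CPM), above every other cell type with 30 cells. By median matrix fibroblast-like cells followed (153, 129, 101 and 118 CPM). Their range overlapped those of adventitial fibroblast-like (72.8 to 170.1 CPM) and lymphatic-like cells (93.6 to 124.2 CPM). Immune-like cells had at most 6.64 CPM of Osmr.

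Socs3, the feedback inhibitor, was highest in venous-like cells with 387, 542, 706 and 614 CPM, and no other cell type with 30 cells reached the lowest of these. By median over the 4 lungs gCap-like cells were next (99, 149.6, 272 and 248 CPM), with a range that overlapped that of myofibroblast-like cells (179.6, 139.7, 255 and 178 CPM). Venous-like cells thus led for Il6st, Lifr and Socs3. Their sum was also higher than that of gCap-like cells for 13 dissociation and immediate-early genes such as Fos, Jun and Egr1, which cells can switch on during tissue digestion. These genes summed to 22560, 29680, 33130 and 35460 CPM in venous-like and 7559, 12390, 12960 and 13190 CPM in gCap-like cells, and their part in the Socs3 levels was not tested. Myofibroblast-like cells had higher sums than venous-like cells in each library (53390, 50560, 63050 and 46600 CPM) and less Socs3. For Stat3, myofibroblast-like cells led with 396, 436, 252 and 380.5 CPM and overlapped venous-like cells (339, 423, 287 and 264 CPM). Barcodes without a cell had more Stat3 than any cell type with 30 cells (650, 880.4, 661 and 841 CPM).

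**Figure D2:**
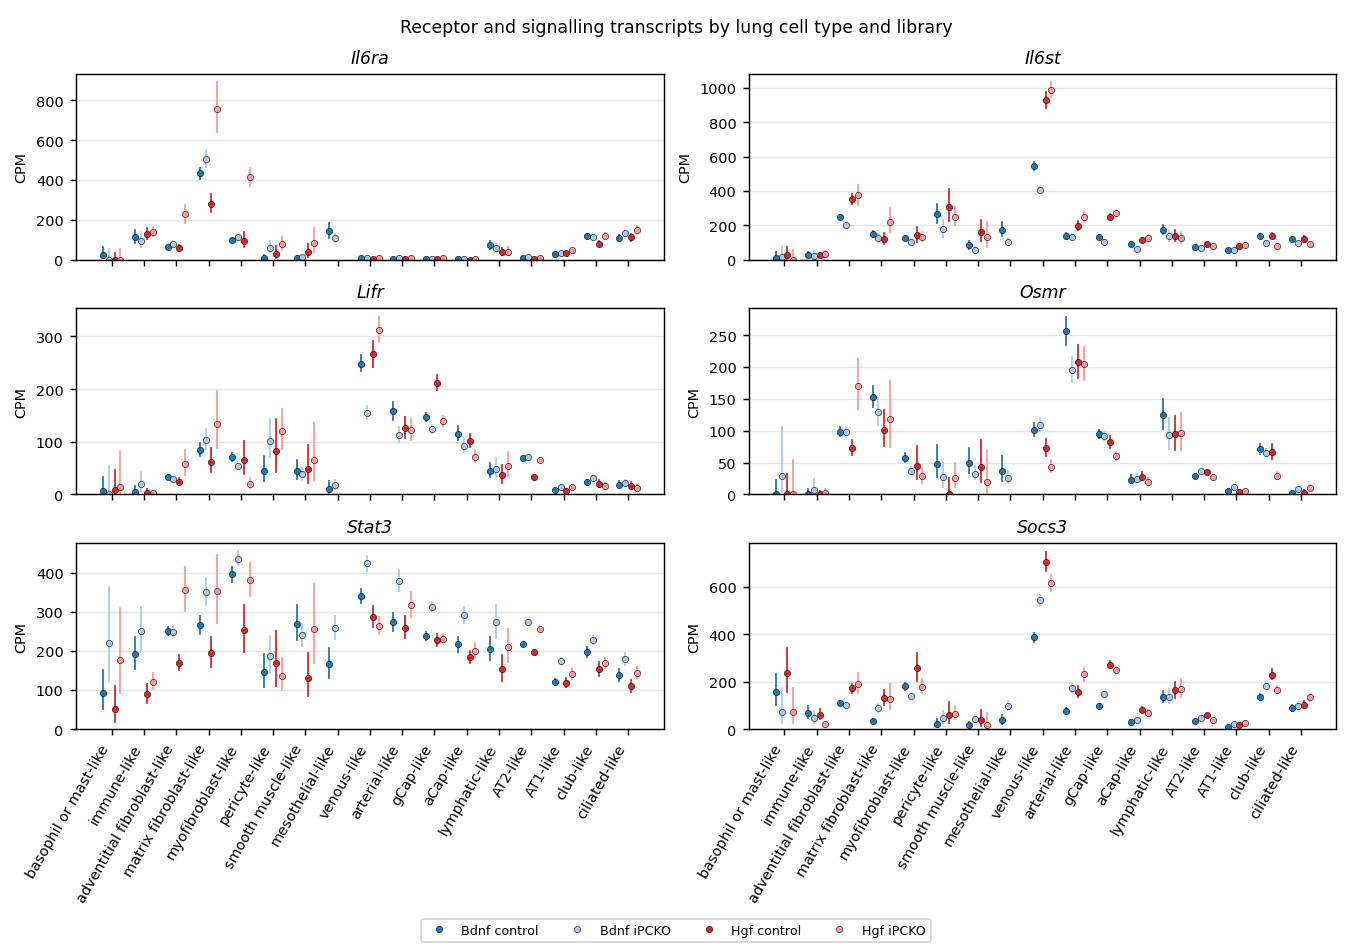
Levels of the 4 receptors, Stat3 and Socs3 (CPM) by lung cell type, 1 point per library with its exact 95% counting interval as a line. Venous-like cells lead for Il6st (409 to 990.3 CPM) and Socs3 (387 to 706 CPM), arterial-like cells for Osmr (195 to 256 CPM) and matrix fibroblast-like cells for Il6ra (281 to 757 CPM).

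The likeness of 9 members to genes with a mean of at least 10 CPM was measured as Pearson's r of log2(CPM + 1) over 31 points, the cell types of both control lungs. Cntf was left out because it did not reach 10 CPM. The points share libraries and depth, so the values are descriptions. Socs3 was most like Junb (0.817), Zfp36 (0.802) and Egr1 (0.797), all of the dissociation and immediate-early list. Il6ra was most like Cebpb (0.869), Atic (0.755) and Mmgt2 (0.748), Il6st most like Rab13 (0.777), Maged2 (0.753) and Klhl13 (0.721), and Osmr most like Prrg1 (0.796), Nfib (0.775) and Tead2 (0.760). Lifr was most like ENSMUSG00000121513 (0.866), Prrg1 (0.831) and Clic4 (0.830), and Stat3 most like Zhx3 (0.781), Hmcn1 (0.738) and Lifr (0.729). Il6 was most like Apbb1ip (0.905), Csf2rb2 (0.856) and Emilin2 (0.845) and Lif most like Apbb1ip (0.785), Il6 (0.776) and Emilin2 (0.774). No genes are named for Osm, since only the 2 immune-like points were above 2.85 CPM.

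Libraries were then compared where a cell type had 30 cells in both and a gene had 20 UMIs in both together, and values past 2-fold were counted. In the Bdnf pair 12 of 103 values of the members were past 2-fold, 10 higher and 2 lower in the mutant, beside 6.59% of all gene values. The median log2 ratio was 0.12 for the members and 0.0087 for all genes. In the Hgf pair it was 20 of 87, 13 higher and 7 lower, beside 15% of all gene values, with medians of 0.13 and -0.02. Between the 2 control lungs, which both lack Cre, it was 8 of 87, 4 higher and 4 lower in the Hgf control, beside 13.6% of all gene values, with medians of -0.08 and -0.05. With cell types taken from clusters the counts were 8 of 96 (Bdnf), 14 of 72 (Hgf) and 15 of 85 values (controls), and at a minimum of 3000 UMIs the Hgf count was 12.

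Socs3 was the member most often past 2-fold in the Bdnf pair, always higher in the mutant. This held in arterial-like (77.7 and 173 CPM, log2 ratio 1.16, 0.89 to 1.43), matrix fibroblast-like (35 and 87.6 CPM, 1.32, 0.88 to 1.77), smooth muscle-like (16.1 and 41.5 CPM, 1.37, 0.34 to 2.58), mesothelial-like (37.5 and 99.2 CPM, 1.4, 0.66 to 2.23) and pericyte-like cells (20.7 and 48.1 CPM, 1.22, -0.14 to 2.74). With cell types taken from clusters the ratio was below 2-fold in arterial- (0.93), matrix fibroblast- (0.93) and pericyte-like cells (0.88). In gCap-like cells the ratio was 0.60, 0.47 to 0.72, and in myofibroblast-like cells it was -0.36, -0.51 to -0.21. The 2 control lungs differed in Socs3 by 1.89 in matrix fibroblast-like, 1.47 in aerocyte (aCap-like), 1.46 in gCap-like and 1.02 in arterial-like cells, higher in the Hgf control. In arterial-, matrix fibroblast-, smooth muscle- and pericyte-like cells the Bdnf control had the lowest Socs3 level of the 4 lungs, and mesothelial-like cells reached 30 cells in the Bdnf pair alone. The values past 2-fold lower in the Hgf control were Lifr in AT2-like (-1.11), Stat3 in smooth muscle-like (-1.04) and immune-like (-1.1) and Lif in immune-like cells (-4.03).

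Dissociation and immediate-early genes were measured in the same cells. Of their 208 values in the Bdnf pair, 32 were past 2-fold higher and 3 lower in the mutant, with a median of 0.51. In the 5 cell types where Socs3 was past 2-fold, 2 of 13 were past 2-fold higher in arterial-like, 3 in matrix fibroblast-like, 0 in smooth muscle-like, 2 in mesothelial-like and 11 in pericyte-like cells. Their sum was 15700 and 23490 CPM in arterial-like, 13100 and 22170 CPM in matrix fibroblast-like, 7266 and 11150 CPM in smooth muscle-like, 6747 and 11720 CPM in mesothelial-like and 3651 and 12760 CPM in pericyte-like cells, control first. Between the control lungs 35 of 193 values were higher and 20 lower, with a median of 0.49. Their part in the Socs3 differences was not tested. Known STAT3 targets past 2-fold in these 5 cell types were all higher in the mutant. They were 2 of 12 in arterial-like, 1 of 15 in matrix fibroblast-like and 1 of 8 in smooth muscle-like cells. In mesothelial-like cells they were 4 of 13 and in pericyte-like cells 2 of 6. Of all genes, 2.64, 4.99, 3.81, 5.83 and 6.04% were past 2-fold higher in these types.

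Pericyte-like cells, which carry Cre in the mutants, numbered 88 and 113 in the Bdnf pair. Il6ra had 3 and 20 UMIs (8.86 and 60.1 CPM, 2.76, 1.01 to 5.15), and Lifr had 44.3 and 102 CPM, 1.2, 0.29 to 2.19. With cell types taken from clusters the ratios were 1.8 (Il6ra) and 0.21 (Lifr). For both genes the Bdnf control had the lowest level of the 4 lungs, whose medians were 43.6 (Il6ra) and 91.8 CPM (Lifr). The mutant level of Il6ra was close to that of barcodes without a cell. Il6st was lower by less than 2-fold (266 and 177 CPM, -0.59, -1.08 to -0.10). In the same cells 11 of 13 dissociation and immediate-early genes were past 2-fold higher, including Fos (2.53), Egr1 (2.64) and Jun (1.44). Of 6 known STAT3 targets measured there, Cebpd (1.06) and Icam1 (1.66) were past 2-fold. Of all genes, 9.26% were past 2-fold in these pericyte-like cells.

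Il6 in myofibroblast-like cells, the contractile fibroblasts of alveolar septa, was lower in the Bdnf iPCKO. The control had 109 UMIs in 30 of 1067 cells and the mutant 22 in 16 of 1768 cells. These are 26 (21.4 to 31.4) and 4.11 (2.58 to 6.22) CPM, a log2 ratio of -2.66, and -3.51 under a stricter gate. The Hgf libraries had 5 and 2 UMIs, too few for a ratio. Free Il6 RNA was 13.1 CPM in the Bdnf control and 14.8 CPM in the mutant.

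Of the remaining values past 2-fold in the Bdnf pair, Osmr was higher in AT1-like cells, the flat gas-exchange epithelium (4.77 and 10.9 CPM, 1.19, 0.70 to 1.69), and in ciliated-like cells (2.92 and 7.88 CPM, 1.43, 0.17 to 2.89). Il6 was higher in matrix fibroblast-like cells (4.15 and 13.7 CPM, 1.73, 0.46 to 3.09), where both levels were below that of free RNA. Lif was lower in immune-like cells (101 and 43.2 CPM, -1.23, -2.24 to -0.31). Under a stricter gate the Lif ratio was -2.27. Basophil-or-mast-like cells were 61.1% of 54 control and 44.4% of 36 mutant immune-like cells there, and their part in the difference was not tested.

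In the Hgf pair Il6ra and Lifr were each past 2-fold in 5 cell types, Il6ra always higher in the mutant. This held for Il6ra in myofibroblast-like (95.3 and 414 CPM, log2 ratio 2.12, 1.56 to 2.73), adventitial fibroblast-like (61.2 and 228 CPM, 1.89, 1.5 to 2.29), matrix fibroblast-like (281 and 757 CPM, 1.43, 1.09 to 1.77), pericyte-like (27.2 and 76.8 CPM, 1.5, -0.02 to 3.47) and gCap-like cells (3.58 and 8.71 CPM, 1.28, 0.44 to 2.21). In the 3 fibroblast types the mutant was above the other 3 lungs. The same types differed by 0.20, 0.34 and 0.23 in the Bdnf pair and by -0.05, -0.01 and -0.62 between the controls. Of all genes, 20.2, 22.1 and 20.4% were past 2-fold in these types. Free Il6ra RNA was 35.2 and 80.4 CPM, and its part in the difference was not tested.

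Adventitial fibroblast-like cells, 274 in the Hgf control and 114 in the mutant, had 4 members past 2-fold higher and 1 lower of 8. Of all genes, 9.53% were past 2-fold higher and 12.5% lower in these cells. Beside Il6ra, Lifr (23.7 and 57.5 CPM, 1.27, 0.52 to 2.0), Osmr (72.8 and 170.1 CPM, 1.22, 0.80 to 1.64) and Stat3 (169.6 and 356 CPM, 1.07, 0.79 to 1.35) were higher in the mutant. Lif had 30 and 1 UMIs (-2.84, -8.19 to -0.25), and the ratio was 0.0134 under a stricter gate. Il6st (353 and 376 CPM) and Socs3 (172 and 192 CPM) were within 2-fold. Among the other receptors Cntfr, which binds CNTF, was higher (51.7 and 243 CPM, 2.23, 1.83 to 2.64). Of 14 known STAT3 targets 5 were past 2-fold, all higher, namely Pim3 (1.88), Pim1 (1.78), Serpina3n (1.62), Cebpd (1.36) and Myc (1.21). The inhibitor Socs1 was lower (50.6 and 6.63 CPM, -2.93, -5.24 to -1.34). Of the 13 dissociation and immediate-early genes 0 were past 2-fold, and they summed to 21770 and 20540 CPM.

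Lifr differed in both directions in the Hgf pair. It was higher in AT2-like (32.2 and 64.5 CPM, 1.0, 0.87 to 1.13), AT1-like (5.83 and 13.4 CPM, 1.246, 0.47 to 2.06) and matrix fibroblast-like cells (62 and 134 CPM, 1.11, 0.30 to 1.9) and lower in myofibroblast-like cells (64.7 and 20 CPM, -1.7, -2.73 to -0.67). In AT2-like cells the Hgf control was the lung that stood apart, since the Bdnf libraries had 69.7 and 71.6 CPM of Lifr. Cntfr was higher in myofibroblast-like (218 and 969 CPM, 2.15) and lower in AT2-like cells (31.5 and 7.83 CPM, -2.01). Osmr was lower in club-like cells, the secretory cells of airways (67.3 and 29.1 CPM, -1.21, -1.59 to -0.83), and higher in ciliated-like cells (2.98 and 10 CPM, 1.75, 0.34 to 3.49). Il6 was lower in AT2-like cells (2.4 and 1.11 CPM, -1.11, -2.0 to -0.31), where both levels were below that of free RNA.

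Immune-like cells of the Hgf pair differed in cytokines and in make-up. Of 7 members there, 1 was past 2-fold higher and 3 lower, beside 17.3% of all genes. Il6 (1300 and 279 CPM, -2.22, -2.41 to -2.03), Osm (617 and 204 CPM, -1.6, -1.84 to -1.36) and Socs3 (61.7 and 20.4 CPM, -1.6, -2.42 to -0.81) were lower and Lif was higher (6.17 and 29.6 CPM, 2.26, 0.77 to 4.22). Basophil-or-mast-like cells were 39% of 100 control and 15.1% of 106 mutant immune-like cells, and neutrophil-like cells were 6.0 and 18.9%. Within basophil-or-mast-like cells the intervals of Osm overlapped between the 2 libraries, and those of Il6 did not.

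**Figure D3:**
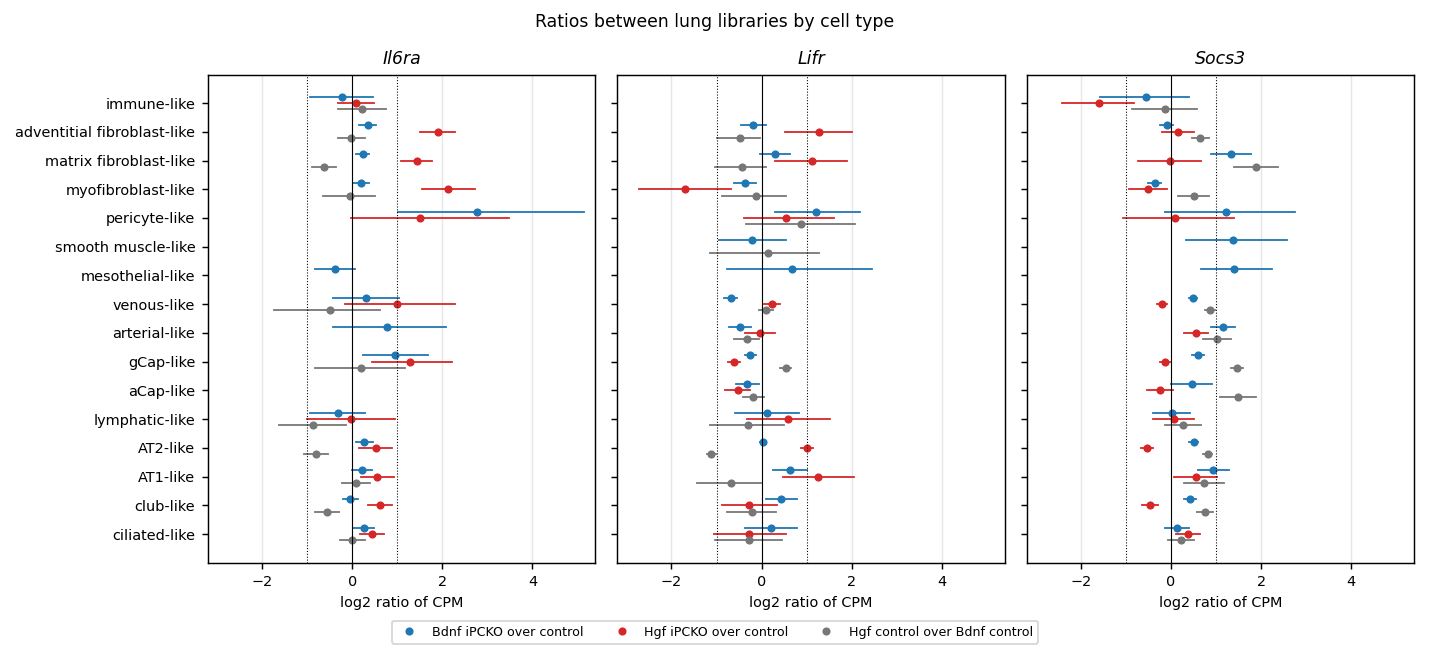
Log2 ratios of CPM by lung cell type for mutant over control in the Bdnf and Hgf pairs and for the Hgf control over the Bdnf control, with exact 95% counting intervals as lines. Il6ra is to the right in the Hgf pair in myofibroblast-like (2.12) and adventitial fibroblast-like cells (1.89), and Socs3 in matrix fibroblast-like cells differs more between the 2 controls (1.89) than in the Bdnf pair (1.32).

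Further genes are given by counts of values past 2-fold. Of all gene values, 3.99% were higher and 2.59% lower in the Bdnf pair, 7.02 and 7.95% in the Hgf pair and 5.48 and 8.07% between the 2 control lungs. Known STAT3 targets had 27 higher and 3 lower of 206 in the Bdnf pair, 55 higher and 5 lower of 174 in the Hgf pair and 15 higher and 11 lower of 181 between the 2 control lungs, with medians of 0.29, 0.36 and 0.12. In gCap-like cells of the Hgf pair 4 of 14 targets were past 2-fold higher, beside 6.32% of all genes. These were Pim3 (57.5 and 215 CPM, 1.9), Pim1 (1.08), Lrg1 (2.61) and Serpina3n (1.33). Socs3 was within 2-fold in the same cells and slightly lower in the mutant. The targets were not particular to gCap-like cells. Past 2-fold higher were 6 of 12 in arterial-like, 5 of 13 in aCap-like, 5 of 14 in venous-like and 3 of 12 in lymphatic-like cells. Of all genes, 5.18, 5.01, 5.97 and 5.19% were past 2-fold higher in these 4 types. The other family cytokines had 2 higher and 2 lower of 34 in the Bdnf pair, 2 higher and 2 lower of 19 in the Hgf pair and 1 higher and 3 lower of 23 between the 2 control lungs. The other receptors had 3 higher and 1 lower of 30 in the Bdnf pair, 3 higher and 4 lower of 25 in the Hgf pair and 12 higher and 2 lower of 28 between the 2 control lungs. The other inhibitors had 5 higher and 0 lower of 77 in the Bdnf pair, 4 higher and 5 lower of 66 in the Hgf pair and 10 higher and 4 lower of 69 between the 2 control lungs. Of the kinases Jak1, Jak2 and Tyk2 and the factors Stat5a and Stat5b, 0 values were past 2-fold in the Bdnf pair, and in the Hgf pair Jak2 in matrix fibroblast-like (1.41) and Stat5b in pericyte-like cells (2.07) were higher and Jak2 in immune-like (-1.81), Tyk2 in ciliated-like (-1.06) and Stat5a in AT2-like cells (-1.03) lower. Dissociation and immediate-early genes had 4 higher and 21 lower of 193 in the Hgf pair.

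In the cortex Il6 and Osm had different sources. Il6 was highest in vascular smooth muscle (vSMC-like) cells, at 102 (77.2 to 131) CPM (control) and 78.7 (58.2 to 104) CPM (Nodal iPCKO), on 59 and 49 UMIs. An Il6 UMI was found in 10 of 63 and 12 of 82 of these cells, which held 60.8 and 42.6% of all Il6 UMIs. In astrocyte-like cells, with median depths of 10246 and 11043 UMIs against 8845 and 6969, the shares were 0.277 and 0.123%. No other cortex cell type with 30 cells was above 6.17 CPM. Pericyte-like cells had that level in the Nodal iPCKO library and 0 CPM in the control, on too few UMIs for a ratio. Osm lay in microglia-like cells, the macrophages of the brain, which held 92.5 and 94.9% of its UMIs. Lif did not exceed 2.93 CPM and Cntf did not exceed 0.988 CPM.

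Receptors divided the cortex by cell type. Il6ra lay in microglia-like (551 and 426 CPM) and other leukocyte-like cells (519 and 486 CPM), with at most 28.9 CPM elsewhere. Osmr lay in vascular cells, with 93.2 and 95.8 CPM in pericyte-like, 81.3 and 71.7 CPM in endothelial-like and 56.8 and 43.4 CPM in vSMC-like cells, and these 3 ranges did not overlap. Microglia-like cells had 0.64 and 1.04 CPM of Osmr. Lifr was highest in astrocyte-like cells (54.2 and 49.5 CPM) and Il6st in vSMC-like cells (199.5 and 206 CPM), followed by fibroblast-like cells (178 and 161 CPM). Socs3 was highest in vSMC-like cells (408 and 516 CPM), with fibroblast-like cells next (178 and 135 CPM). Dissociation and immediate-early genes also had their highest sums in vSMC-like cells (16340 and 25380 CPM). Fibroblast-like cells had 12440 and 13090 CPM and endothelial-like cells 12950 and 12450 CPM of them. Their part in the Socs3 and Il6 levels of vSMC-like cells was not tested. Stat3 was highest in other leukocyte-like (459 and 544 CPM) and microglia-like cells (520.4 and 455 CPM), whose ranges overlapped, and was higher still in barcodes without a cell (647 and 599.6 CPM).

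In the Nodal pair 3 of 45 values were past 2-fold, beside 5.72% of all gene values, with a median of -0.13 for the members and -0.02 for all genes. Il6ra was higher in vSMC-like (12 and 28.9 CPM, 1.26, -0.06 to 2.77) and fibroblast-like cells (9.3 and 19.6 CPM, 1.12, 0.03 to 2.33), and Socs3 was lower in neuron-like cells (7.7 and 3.25 CPM, -1.24, -2.35 to -0.09). Each of the 3 rested on fewer than 50 UMIs. Known STAT3 targets had 9 higher and 1 lower of 89, other cytokines 1 higher and 1 lower of 17, other receptors 0 higher and 0 lower of 13, other inhibitors 2 higher and 0 lower of 35 and dissociation and immediate-early genes 7 higher and 1 lower of 102 values.

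Astrocyte-like cells numbered 721 (control) and 814 (mutant) and had 0 of 6 members past 2-fold, beside 4.16% of all genes. Some differences below 2-fold had counting intervals that did not include 0. The share of all genes with such intervals was not computed, so they cannot be read against a background. Osmr (17 and 31.6 CPM, 0.89, 0.58 to 1.21), Stat3 (179.9 and 287 CPM, 0.67, 0.58 to 0.77) and Socs3 (12.2 and 22.8 CPM, 0.91, 0.54 to 1.28) were higher in the mutant. Il6st was lower (84.5 and 71.5 CPM, -0.24, -0.40 to -0.08), and the interval of Lifr included 0 (54.2 and 49.5 CPM, -0.13, -0.33 to 0.07). Of 12 known STAT3 targets, Timp1 was past 2-fold (0.406 and 2.4 CPM, 2.56, 0.82 to 4.95), and their median was 0.64 against 0.0077 for all genes. Serpina3n, a protease inhibitor of reactive astrocytes (20.8 and 37.1 CPM, 0.83, 0.55 to 1.12), and Gfap, their filament protein (301 and 301 CPM, 0.00, -0.08 to 0.08), were named after their values were seen. Of the 13 dissociation and immediate-early genes 3 were past 2-fold higher in these cells, with a median of 0.83 and a sum of 4460 and 7906 CPM, and their part in these differences was not tested.

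Microglia-like cells numbered 849 (control) and 1389 (mutant) and had 0 of 8 members past 2-fold, beside 6.96% of all genes. Osm was 89.8 (82 to 98) and 127 (119.6 to 134) CPM, a log2 ratio of 0.50, 0.34 to 0.65. An Osm UMI was found in 33.7 and 39.7% of these cells at median depths of 6187 and 6434 UMIs, and in 0.139 and 0% of the more deeply read astrocyte-like cells. Lower in the mutant by less than 2-fold were Il6ra (551 and 426 CPM, -0.37, -0.44 to -0.30), Il6st (119 and 79.9 CPM, -0.57, -0.72 to -0.42), Lifr (25.5 and 13.3 CPM, -0.93, -1.29 to -0.58) and Stat3 (520.4 and 455 CPM, -0.20, -0.26 to -0.13), while Osmr had too few UMIs for a ratio (0.64 and 1.04 CPM). Socs3 had an interval that included 0 (47.9 and 43.6 CPM, -0.14, -0.36 to 0.09). Of the 13 dissociation and immediate-early genes 0 were past 2-fold in these cells, with a median of -0.20.

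**Figure D4:**
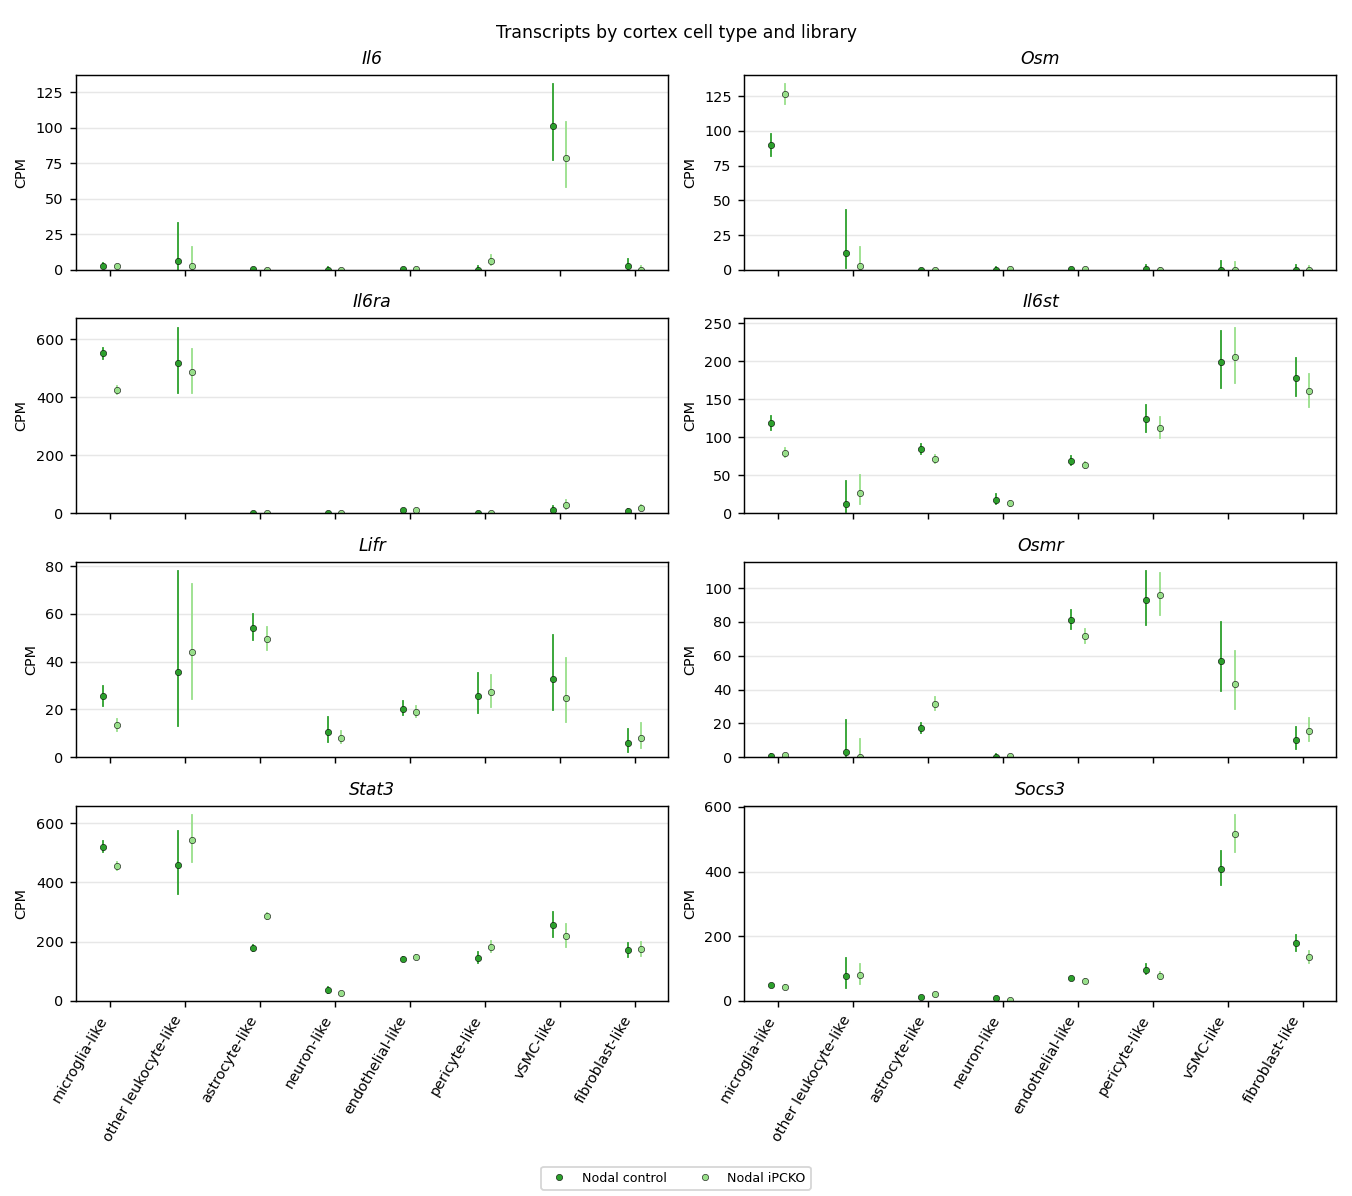
Levels (CPM) by cortex cell type in the Nodal control and Nodal iPCKO libraries, with exact 95% counting intervals as lines. Il6 (78.7 to 102 CPM) and Socs3 (408 to 516 CPM) are highest in vSMC-like cells, Osm in microglia-like cells (89.8 to 127 CPM) and Osmr in pericyte-like cells (93.2 to 95.8 CPM).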

How the data were processed

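Single-cell libraries of lung and cortex were aligned by the authors with STARsolo (STAR 2.7.10a) to GRCm39, with reads of several genes shared out by an EM step and no cell filter. The deposited values are therefore estimated counts of UMIs per gene and barcode, and those of a gene that shares sequence with another are uncertain. The sources name 2 different GENCODE annotation releases. Barcodes with at least 1500 UMIs (700 in the Hgf libraries) were gated by marker genes, and the UMIs of each gene were added up over the barcodes of a cell type. Doublets were called with Scrublet in 0.649 to 8.81% of barcodes and kept, with their removal as an alternative. CPM have exact Poisson intervals, and log2 ratios have conditional exact intervals on estimated counts rounded to whole numbers, with 0 set to 3 UMIs in a ratio. Intervals cover counting error only. Values were given for cell types with at least 30 cells and ratios for at least 20 UMIs in both libraries together, with 2-fold as the threshold. Genes of the other lists past 2-fold were named for a part of the cell types, mostly where a member was past 2-fold. A gene of these lists that is not named can be past 2-fold too. For each member of at least 10 CPM in both control lungs the 3 genes most like it were named (not printed for Osm). The members and the 6 other lists were chosen with earlier results of these data known. A gene of these lists, and the counts of the list that holds it, are not reported here. The calculation was tested on simulated data. Alternatives changed the UMI minimum, gate, doublets, scaling and fold. Python 3.11.15 was used with numpy 2.4.6, scipy 1.17.1, pandas 2.3.3, scanpy 1.11.5, leidenalg 0.10.2 and igraph 0.11.9.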

Additional observations from a re-analysis of the deposited data

Results flagged for a closer look

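Lif in immune-like cells went in opposite directions in the 2 lung pairs. Its log2 ratio of mutant over control was -1.23 in the Bdnf pair, on 46 and 13 UMIs, and 2.26 in the Hgf pair, on 4 and 32 UMIs. Under a stricter gate these ratios were -2.27 and 2.69. The difference between the pairs was not tested, since each group has 1 library.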

How the results depend on the processing

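No paired analysis was possible because each group has 1 library, and for the same reason no library could be left out. Of 341 re-computed values of the 43 values past 2-fold, 331 stayed inside the counting interval of the reported value, 9 lay outside it and 1 changed sign. That one was Lif in adventitial fibroblast-like cells of the Hgf pair, at 0.0134 under a stricter gate. Values that no longer met the minimum of cells or UMIs were not re-computed, and the minimum of 50 UMIs left 22 of the 43. Most settings reuse the same cells and many intervals are wide, so staying inside is a weak check. With at least 50 UMIs required, the Bdnf count of 12 became 7 and the Nodal count of 3 became 0, by construction on fewer values. At 1.5-fold the counts were 27 (Bdnf), 32 (Hgf) and 8 (Nodal), and the share of all genes at that fold was not computed, so they cannot be read against a background. With the interval also required to clear a margin around no change the Nodal count was 0. At a minimum of 3000 UMIs the Hgf count of 20 became 12, on 67 values in place of 87. With cell types taken from clusters the 2 control lungs had 15 values past 2-fold in place of 8, and the cause was not tested. Single values that fell below 2-fold with clusters, beside those given above, were Osmr in ciliated-like cells of the Bdnf pair (0.91), Il6 in AT2-like (-0.47) and Lifr in AT1-like cells of the Hgf pair (0.91), Il6ra in cortex fibroblast-like cells (0.93), and Socs3 in arterial-like (0.84) and Stat3 in immune-like cells between the controls (-0.40). Under the stricter gate Lifr in matrix fibroblast-like cells of the Hgf pair was 0.80, Lifr in AT1-like cells 0.95, Il6 in AT2-like cells -0.63 and Socs3 in arterial-like cells between the controls 0.90, and at 3000 UMIs Il6ra in gCap-like cells was 0.95, Lifr in AT2-like cells 0.98, Il6 in AT2-like cells -0.94 and Socs3 in arterial-like cells between the controls 0.85. Lifr in AT2-like cells was 0.99 with the mitochondrial limit, and Stat3 in smooth muscle-like cells between the controls was -0.996 with median-of-ratios scaling. Values that stayed past 2-fold but moved by over 1.5 times, beside those given above, were Socs3 in smooth muscle-like cells of the Bdnf pair (2.06) and Il6ra in pericyte-like cells of the Hgf pair (3.12) under the stricter gate, Lif in adventitial fibroblast-like cells of the Hgf pair with clusters (-1.93), Il6 in immune-like cells of the Hgf pair at 3000 UMIs (-2.97) and Lif in immune-like cells between the controls (-3.13 at 3000 UMIs and -5.57 with clusters). The lung cell type with the highest level was kept for 9 of 10 members at 3000 UMIs (Lif differed) and for 9 with clusters, the stricter gate and whole UMIs (Cntf differed in each). In the cortex it was kept for 8 at 3000 UMIs (not Lif and Il6ra), 8 with clusters (not Lif and Lifr), 9 with the stricter gate (not Lif), 9 with whole UMIs (not Cntf) and 9 with median-of-ratios scaling (not Il6ra). Clusters gave no immune-like cells in either lung mutant and no vSMC-like cells in the Nodal control, so for members highest there the comparison rests on the other libraries. They also gave no pericyte-like cells in the Hgf control and no smooth muscle-like cells in either Hgf library. Ratios that need those cells were not re-computed with clusters. Depth limits low members most, since a ratio on 20 to 50 UMIs can pass 2-fold with an interval that includes 0.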
